A study of Mus musculus with 24 samples.

Results

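The 45 genes described here are the ligands, receptors and modulators of Wnt signalling, taken with the stretch of chromatin around each of them. They were chosen by name from the mouse annotation, and comprise 19 Wnt ligands, 14 receptors and co-receptors (Fzd1 to Fzd10, Lrp5, Lrp6, Ror1 and Ror2), 9 secreted modulators (3 Dkk genes, 4 Sfrp genes and 2 Rspo genes) and 3 nuclear effectors or feedback targets (Axin2, Lef1 and Tcf7), out of 21938 annotated protein-coding genes. For each gene the window was the gene body in mm10 with 20 kb on either side, and a peak was assigned to the gene if it overlapped that window. All 45 genes were found, and none was filtered out. Windows of 4 pairs of neighbours overlapped (Wnt1 and Wnt10b, Wnt3 and Wnt9b, Wnt3a and Wnt9a, Wnt6 and Wnt10a), so that a peak in the common stretch counted for both genes.

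The study mapped histone modifications by ChIP-seq to ask how Hedgehog signalling acts on chromatin. The limb samples were whole forelimb buds of E10.5 embryos with 32 to 35 somites, on a Swiss Webster background, with 400000 cells per immunoprecipitation. Mutant embryos were homozygous for an Shh null allele (Shh-/-), which removes the Hedgehog ligand of the limb. Controls were labelled wild type (WT) and, by the study's methods, were littermates that included heterozygotes. Buds of several embryos were pooled for each sample. H3K27ac and H3K4me2 were profiled in both genotypes and H3K27me3 in Shh-/- limb buds, and H3K27me3 in WT limb buds was not analysed here. NIH3T3 cells, a fibroblast line established from mouse embryos, were kept in 0.5% serum with 400 nM purmorphamine, an agonist of the Hedgehog transducer Smoothened, or with the solvent DMSO (control) for 48 h, and H3K27ac was profiled with 1000000 cells per immunoprecipitation. The labels name LIF in both treatments. Of 24 libraries, 14 were immunoprecipitations with 2 replicates per condition and 10 were inputs. Both replicates of a condition went into 1 peak list, so 7 lists were available, none with a replicate. The values below therefore have no replicate error and no test between conditions, and the 95% Wilson intervals cover counting error only.

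Wnt ligands are secreted lipid-modified glycoproteins that bind Frizzled receptors together with the co-receptors Lrp5 or Lrp6, or with Ror receptors. With Lrp5 or Lrp6 they stabilise β-catenin, which enters the nucleus and works with Tcf and Lef factors on targets such as Axin2, a feedback inhibitor of the pathway. Wnt5a and Ror2 act mainly in a β-catenin-independent branch that orients growing tissue. Dkk and Sfrp proteins are mostly antagonists, while R-spondins (Rspo) potentiate Wnt signals. In the limb bud, ectodermal Wnt ligands maintain the apical ectodermal ridge and dorsal identity, and mesenchymal Wnt5a drives outgrowth. H3K27ac is found at active promoters and enhancers, H3K4me2 at promoters and enhancers whether acetylated or not, and H3K27me3 at chromatin held by Polycomb complexes.

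The limb lists held between 20830 (H3K27me3) and 49679 (WT H3K27ac) peaks on the main chromosomes, and the NIH3T3 lists 87779 with purmorphamine and 90989 in control cells, so counts are not compared across lists without the background of the same list. In the WT limb all 7 markers of limb mesenchyme (Prrx1, Prrx2, Tbx5, Twist1, Msx1, Hoxd9 and Meis2) had an H3K27ac peak within 1 kb of a transcription start, as did all 7 in Shh-/-. Of 9 markers of limb ectoderm 0 had one in WT and 1 (Dlx5) in Shh-/-, whereas 7 of 9 carried H3K27me3 at a start. So did 4 of the 7 mesenchyme markers (Hoxd9, Prrx1, Tbx5 and Twist1) and 4 of 5 markers of muscle precursors (Lbx1, Myod1, Pax3 and Pax7), in the Shh-/- list. For H3K27ac, muscle precursor markers had 0 of 5 in WT and 2 of 5 (Lbx1 and Pax3) in Shh-/-, endothelial markers 2 of 6 in both, and neural crest and blood markers 0 of 3 and 0 of 4. All 6 fibroblast markers had a peak in both NIH3T3 lists, as did 5 of the 7 mesenchyme markers (Hoxd9, Meis2, Prrx1, Prrx2 and Twist1). Of the 6 fibroblast markers 2 (Col1a2 and Fn1) also had one in both limb lists. The part of these cell types in the results below was not tested, and in whole buds fewer cells of a type and less of a mark per cell cannot be told apart. At Shh itself no list held an H3K27ac peak, and H3K4me2 covered 1450 bp in WT and 750 bp in Shh-/-, so the lists do not check the genotype.

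The roles separated by the marks at their promoters. In WT limb buds an H3K27ac peak lay within 1 kb of a transcription start of 19 of the 45 genes (42.2%, against 43.3% of all protein-coding genes), and these were 11 of 14 receptors, all 3 nuclear genes, 3 of 19 ligands and 2 of 9 modulators. In Shh-/- limb buds there were 18 (40.0%, against 40.4%), of which 9 were receptors, 3 ligands, 3 modulators and 3 nuclear genes. Promoter H3K4me2 was found at 40 genes in WT (88.9%, against 63.6% of all genes) and 39 in Shh-/- (86.7%, against 63.1%). These included all 14 receptors, all 9 modulators and all 3 nuclear genes in both genotypes. Of the ligands 14 of 19 had it in WT (73.7%) and 13 of 19 in Shh-/- (68.4%), nearer to the shares of all genes. H3K27me3 at a start in Shh-/- showed the opposite distribution to H3K27ac, with 14 of 19 ligands, 3 of 14 receptors, 4 of 9 modulators and 0 of 3 nuclear genes. In total 21 of 45 genes had it (46.7%), against 12.6% of all genes. Of the whole H3K27me3 list 47.2% of peaks had an FDR under 0.05, and with these alone 19 of the 21 genes had it, without Dkk1 and Sfrp4, whose start peaks were single peaks of 200 and 100 bp. The share with H3K27ac was close to the background, and the shares with H3K4me2 and H3K27me3 lay above it.

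**Figure D1:**
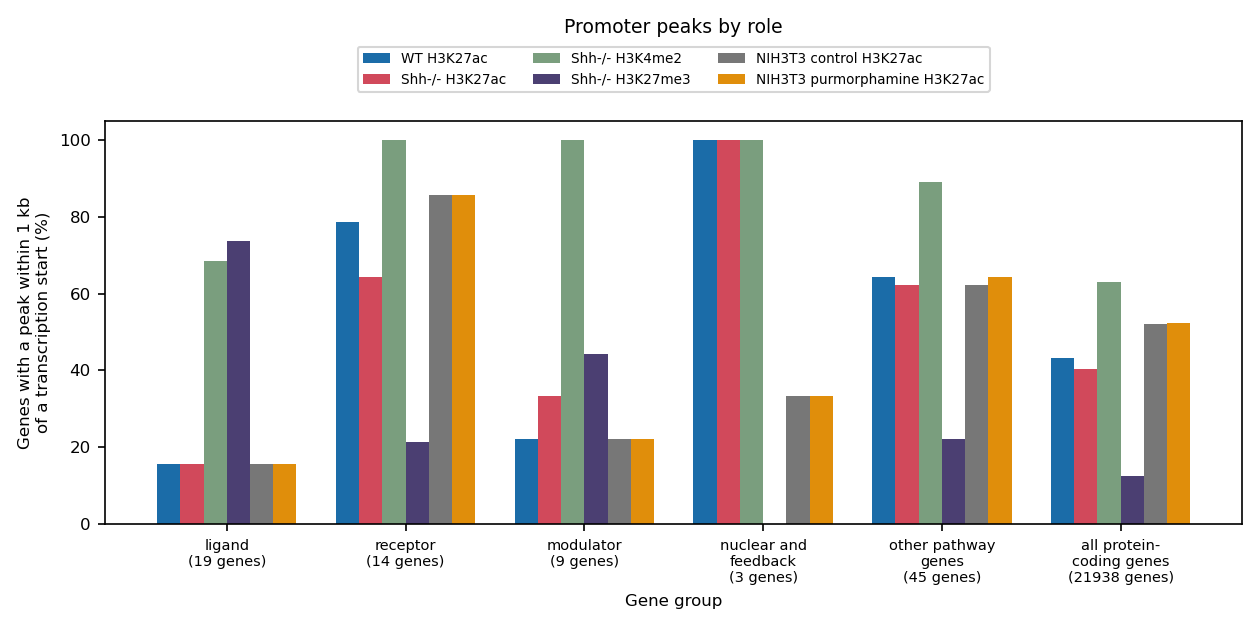
Percentage of genes with a peak within 1 kb of a transcription start (y axis) in 6 peak lists, by role of the Wnt genes, for the 45 other Wnt pathway genes and for all 21938 protein-coding genes. Receptors and nuclear genes have the tall limb H3K27ac bars, nuclear genes being at 1 of 3 in NIH3T3 cells, and ligands the tall H3K27me3 bar (14 of 19). The Shh-/- H3K4me2 bar is at 100.0% for receptors, modulators and nuclear genes and at 68.4% for ligands, against 63.1% of all genes.

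In NIH3T3 cells 18 of the 45 genes had an acetylated promoter in each list (40.0%, against 52.3% of all genes with purmorphamine and 52.2% in control). In both lists 17 were acetylated (37.8%, against 50.9% of all genes). The 18 genes of each list included 12 of 14 receptors, 3 of 19 ligands, 2 of 9 modulators and 1 of 3 nuclear genes. Across both tissues 14 genes had an acetylated promoter in at least 1 limb list and at least 1 NIH3T3 list, 7 in the limb alone (Axin2, Dkk1, Fzd10, Rspo3, Sfrp2, Tcf7 and Wnt5b) and 5 in NIH3T3 cells alone (Dkk3, Fzd5, Fzd6, Wnt6 and Wnt9a). The other 19 genes, 14 of them ligands, had none in any of the 4 H3K27ac lists. The shares of the 45 genes, against all protein-coding genes, were 31.1% against 42.2% in both tissues and 15.6% against 3.15% in the limb alone. They were 11.1% against 11.5% in NIH3T3 cells alone, and 42.2% against 43.2% with none.

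The sums over whole windows gave a similar picture. The median window of the 45 genes held 600 bp of H3K27ac in WT limb buds, as did the median window of all genes, and 500 bp in Shh-/- (400 bp over all genes). For H3K4me2 the medians were 2450 bp in WT and 2250 bp in Shh-/-, against 1500 and 1350 bp. H3K27me3 was present in the windows of 28 genes (62.2%), against 36.9% of all genes. In NIH3T3 cells the medians were 2050 bp with purmorphamine and 1500 bp in control, against 1700 and 1800 bp. The purmorphamine median thus lay above that of all genes, whereas the promoter share in that list lay below. The median window was 62500 bp long, against 57400 bp over all genes.

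**Figure D2:**
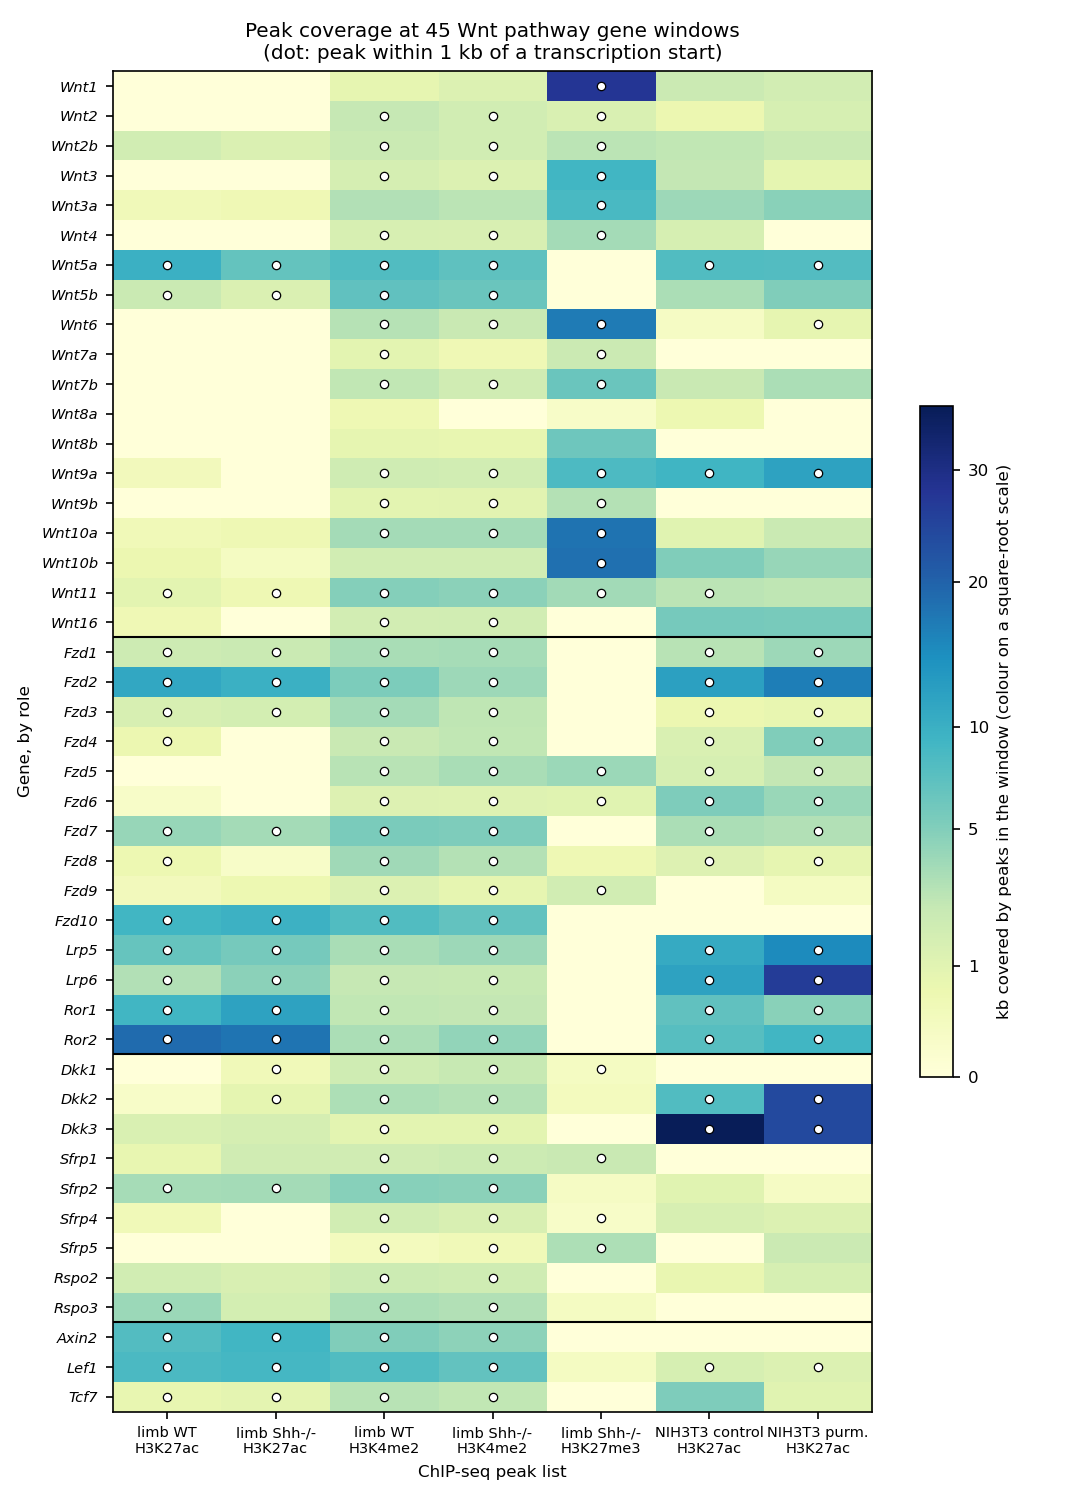
Covered kb in the window of each of the 45 genes (rows, grouped by role) in each of the 7 peak lists (columns), on a square-root colour scale from 0 to the highest value, with a dot where a peak lies within 1 kb of a transcription start. Most ligand rows are blank for H3K27ac in the limb and filled for H3K27me3, whereas the rows of Fzd2, Fzd10, Ror2, Axin2 and Lef1 show the reverse.

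Among the ligands, Wnt5a stood out in the limb. H3K27ac covered 9750 bp (15.6% of the Wnt5a window) in WT and 6700 bp (10.7%) in Shh-/-. Both promoters of Wnt5a lay under broad peaks in both genotypes, each 3750 bp wide in WT, and 3350 and 2400 bp wide in Shh-/-. The strongest had a log2 ratio of ChIP over input of 5.72 in WT and 5.31 in Shh-/-. H3K4me2 covered 7950 and 7050 bp, and no H3K27me3 peak fell in the window. In NIH3T3 cells Wnt5a was also acetylated, over 7800 bp with purmorphamine and 8000 bp in control. Wnt5a was thus the ligand with the most acetylated window in the limb, and had a promoter peak in all 4 H3K27ac lists.

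The only other ligands with an acetylated promoter in the limb were Wnt5b and Wnt11, a pair that signal largely without β-catenin. The Wnt5b window, which also takes in the promoter of Fbxl14, held 2150 bp of H3K27ac in WT and 1250 bp in Shh-/-, and its promoter peak had a log2 ratio of 4.37 in WT and 3.05 in Shh-/-. The Wnt11 window held 900 and 488 bp, and its promoter peaks were among the narrowest, 200 bp in WT and 100 bp in Shh-/-. Wnt11 also carried 3650 bp of H3K27me3, with a peak at a start. Wnt2b had 1750 bp of H3K27ac in WT and 1250 bp in Shh-/-, none of it at its start.

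The remaining ligands had little or no limb H3K27ac. In WT 5 windows held 600 bp or less, namely those of Wnt3a (367 bp), Wnt9a (300 bp), Wnt10a (400 bp), Wnt10b (600 bp) and Wnt16 (450 bp). In Shh-/- the Wnt3a, Wnt10a and Wnt10b windows held 467, 500 and 200 bp and those of Wnt9a and Wnt16 none. For Wnt1, Wnt2, Wnt3, Wnt4, Wnt6, Wnt7a, Wnt7b, Wnt8a, Wnt8b and Wnt9b the limb lists held no H3K27ac peak in either genotype. Of these, Wnt7a, the dorsal ectodermal ligand, and Wnt8b and Wnt9b had no H3K27ac peak in NIH3T3 cells either. H3K4me2 was nonetheless found at all but 1 of the ligand windows in both genotypes, the exception being Wnt8a with 500 bp in WT and none in Shh-/-.

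H3K27me3 was concentrated at ligands. The Wnt1 window was the most covered, with 27600 bp in 10 peaks (62.8% of the window). That window also takes in the starts of Wnt10b and Ddn. The peak over the Wnt1 start was 6100 bp wide, beside 7550 bp over that of Wnt10b and 5450 bp over that of Ddn. Wnt10b followed with 18251 bp (38.5%), Wnt10a with 17734 bp (33.7%) and Wnt6 with 16923 bp (31.7%), and Wnt3, which with its receptors maintains the ridge, had 9150 bp (10.9%). These are adjacent pairs in the genome, and 6 H3K27me3 peaks lay in the common stretch of Wnt1 and Wnt10b and 10 in that of Wnt6 and Wnt10a, so the pairs are not independent. Wnt3a and Wnt9a, another such pair with 8 peaks in common, had 8550 and 8200 bp. Further ligands with H3K27me3 at a start were Wnt7b (6300 bp), Wnt4 (3500 bp), Wnt9b (2950 bp), Wnt2b (2700 bp), Wnt7a (2050 bp) and Wnt2 (1300 bp). Wnt8b had 6100 bp and Wnt8a 100 bp, neither at a start. Wnt5a, Wnt5b and Wnt16 were the 3 ligands with no H3K27me3 peak in the window.

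H3K27me3 and H3K27ac had few bases in common at these loci, while most genes with H3K27me3 had some in common with H3K4me2. Of the 107050 bp of H3K27me3 over all 45 windows, 100 bp lay under an H3K27ac peak of the same genotype, 50 bp at Wnt11 and 50 bp at Dkk1. Including WT H3K27ac, 3 of the 28 genes with H3K27me3 had any common base with H3K27ac, the third being Rspo3. Promoters with peaks of both H3K27ac and H3K27me3 in Shh-/- were found for 2 of the 45 genes (4.44%, against 1.6% of all genes). By contrast 25 of the 28 genes with H3K27me3 had bases in common with H3K4me2. The common part varied, with 350 of 18251 bp at Wnt10b and 900 of 1000 bp at Fzd6. A promoter with both H3K4me2 and H3K27me3 in Shh-/- was found for 17 of the 45 genes (37.8%, against 10.9% of all genes), comprising 10 ligands, 3 receptors and 4 modulators. H3K27me3 starts were found among the markers of ectoderm (7 of 9), muscle precursors (4 of 5) and mesenchyme (4 of 7), as given above. For neural crest they numbered 2 of 3, for endothelium 1 of 6, for fibroblasts 1 of 6 and for blood 0 of 4. Whether both marks lay on the same chromatin or in different cells of the bud cannot be told apart.

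The receptors carried most of the limb acetylation of the group. Fzd2, which encodes a Frizzled receptor of both pathway branches, had the highest share of its window acetylated in WT limb buds, 11050 bp (25.3%), and 9850 bp (22.6%) in Shh-/-. Fzd10 came next, with 9150 bp (21.2%) in WT and 9600 bp (22.2%) in Shh-/-. Fzd10 was a limb locus in these data, since neither NIH3T3 list held a single peak in its window. Fzd7 had 4100 bp (9.21%) in WT and 3550 bp in Shh-/-. Ror2, the Wnt5a co-receptor, had the most acetylated base pairs of all, 18800 bp in 44 peaks in WT and 17700 bp in 33 peaks in Shh-/-, spread over a long window of which they took 8.67% and 8.16%. Its relative Ror1 had 9150 bp in 24 peaks in WT and 11650 bp in 31 peaks in Shh-/-.

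The co-receptors Lrp5 and Lrp6, which commit a Wnt signal to β-catenin, were also acetylated at their promoters in both genotypes. Lrp5 had 6550 bp in WT and 5650 bp in Shh-/-, and Lrp6 had 3050 and 4600 bp. Fzd1 (1900 and 2150 bp) and Fzd3 (1400 and 1600 bp) had lower but similar amounts in both lists. In 3 receptor genes the promoter had H3K4me2 and H3K27me3 peaks and no limb H3K27ac peak, namely Fzd5 (3900 bp of H3K27me3), Fzd9 (1700 bp) and Fzd6 (1000 bp). Fzd4 and Fzd8 had promoter peaks of H3K27ac in WT alone. Fzd8 had 550 bp in WT, and its 100 bp in Shh-/- lay outside the 1 kb around the start.

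Among the modulators the limb promoters with H3K27ac were those of Sfrp2 in both genotypes, Rspo3 in WT, and Dkk1 and Dkk2 in Shh-/-. Sfrp2, a secreted Frizzled-related protein, had 3450 bp in WT and 3550 bp in Shh-/-. Rspo2, an R-spondin needed for limb outgrowth, had 1750 and 1350 bp at a distance from its starts, together with promoter H3K4me2. Dkk3 had 1300 and 1550 bp, also away from its start. Sfrp4 had 400 bp in WT and none in Shh-/-, and Sfrp5 had none in either and carried 3150 bp of H3K27me3. Sfrp1 had 2200 bp of H3K27me3 with a peak at its start.

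The 3 nuclear genes were acetylated at their promoters in both genotypes. Axin2, the general readout of β-catenin signalling, had 7800 bp in WT (11.1% of its window) and 9050 bp in Shh-/- (12.8%), no H3K27me3, and no H3K27ac peak in either NIH3T3 list. Lef1 had 8450 and 8857 bp, and Tcf7 had 729 and 879 bp, of which part lies at the promoter of the neighbouring Skp1a. Log2 ratios at the Axin2 start were 6.10 in WT and 5.64 in Shh-/-.

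Stretches of the strongest WT limb peaks with a Tcf/Lef word are printed here as examples of sequence in WT peaks that overlapped a Shh-/- peak. These peaks are the best-ranked WT H3K27ac peaks, 1 per gene, that overlapped a Shh-/- peak and held the word CTTTGAT on either strand. They were picked after the values were known. The Axin2 window lies in an intron 2.07 kb from the outermost start, that of Fzd2 lies 4.09 kb past its start and beyond the gene, and that of Lrp6 lies 0.439 kb upstream of its start. Each run is 200 bases of the plus strand of GRCm38 (mm10) outside annotated exons, and capitals mark the word, which reads ATCAAAG where it sits on the minus strand.
Axin2, chr11:108922320-108922519: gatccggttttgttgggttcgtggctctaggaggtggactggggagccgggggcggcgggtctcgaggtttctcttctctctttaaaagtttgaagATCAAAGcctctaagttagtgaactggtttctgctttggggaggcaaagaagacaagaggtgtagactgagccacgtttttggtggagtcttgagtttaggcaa
Fzd2, chr11:102608388-102608587: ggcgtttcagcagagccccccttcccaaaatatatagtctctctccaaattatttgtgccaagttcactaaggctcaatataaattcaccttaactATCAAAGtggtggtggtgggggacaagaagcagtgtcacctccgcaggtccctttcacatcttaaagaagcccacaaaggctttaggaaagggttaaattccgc
Lrp6, chr6:134567253-134567452: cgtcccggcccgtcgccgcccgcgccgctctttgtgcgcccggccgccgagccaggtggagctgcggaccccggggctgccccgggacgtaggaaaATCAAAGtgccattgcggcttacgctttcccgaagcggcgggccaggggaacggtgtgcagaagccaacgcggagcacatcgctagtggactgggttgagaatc
The peaks around these stretches ranked 649, 1021 and 1927 of the 49679 WT peaks. The Shh-/- peaks that held the same words ranked 826, 14409 and 1114 of 43916. At Fzd2 the Shh-/- peak was 600 bp wide with a log2 ratio of 3.37, against 2900 bp and 5.86 in WT. It began inside the printed stretch and so covered only part of it. A match of letters is a description and not evidence that a factor binds there.

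Between WT and Shh-/- limb buds, most H3K27ac peaks at Wnt loci overlapped a peak of the other genotype. Of 215 WT H3K27ac peaks in the windows 85 did not overlap a Shh-/- peak (39.5%, 95% interval 33.2 to 46.2), against 48.5% of the whole WT list and 45.6% of its peaks in the windows of all protein-coding genes. Of 208 Shh-/- peaks 76 had no WT counterpart (36.5%, 30.3 to 43.3), against 38.4% of the whole list and 34.4% in all gene windows. The WT share lay below that of the whole list, but its interval included the 45.6% of all gene windows. The Shh-/- share differed from both its backgrounds by less than the counting error. Among ligands 19 of 32 WT peaks were unshared (59.4%, 42.3 to 74.5), and 48 of 126 at receptors (38.1%, 30.1 to 46.8). Among the better-ranked peaks of each list 24 of 114 were unshared in WT (21.1%) and 20 of 111 in Shh-/-, against 24.9% and 17.3% of the better-ranked peaks of the whole lists.

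A locus was called different when one list covered at least 1000 bp and at least 2 times the base pairs of the other. Of the 19 Wnt genes with enough H3K27ac in either limb list, 1 was called higher in WT, whereas 10.7% of all gene loci were, and 1 was called higher in Shh-/-, against 1.1%. For H3K4me2 0 of 39 genes were called in either direction, against 1.93% of all loci higher in WT and 0.26% higher in Shh-/-. The 2 genes called, Rspo3 and Sfrp1, both encode secreted modulators.

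Rspo3, which encodes an R-spondin that amplifies Wnt signals through Lgr receptors, had 3918 bp of H3K27ac in WT and 1600 bp in Shh-/-, a ratio of 2.45. The number of peaks did not follow, with 7 in WT and 8 in Shh-/-, so the difference was one of peak width. Part of it lay near the start, where WT peaks of 800 and 650 bp faced Shh-/- peaks of 100 and 150 bp, and a further WT peak of 150 bp at the start had no counterpart. H3K4me2 at Rspo3 covered 3300 bp in WT and 3050 bp in Shh-/-, and NIH3T3 cells had no acetylation in the window. In the 1 Mb on either side of the window, WT also had more covered base pairs, 18532 against 11900 bp, a ratio of 1.56.

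Sfrp1, which encodes a Frizzled-related antagonist, had 1800 bp of H3K27ac in Shh-/- and 750 bp in WT, a ratio of 2.40 with 3 peaks in each list. All 3 lay 40948 to 42948 bp from the Sfrp1 start, beyond the end of the gene, and each overlapped its counterpart. The largest was 800 bp wide with a log2 ratio of 4.06 in Shh-/-, and 350 bp wide with a log2 ratio of 2.93 in WT. The surrounding 1 Mb on either side went the other way, with 9783 bp in Shh-/- and 14400 bp in WT. With no flank around the gene, or with 50 kb, Sfrp1 was not called.

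**Figure D3:**
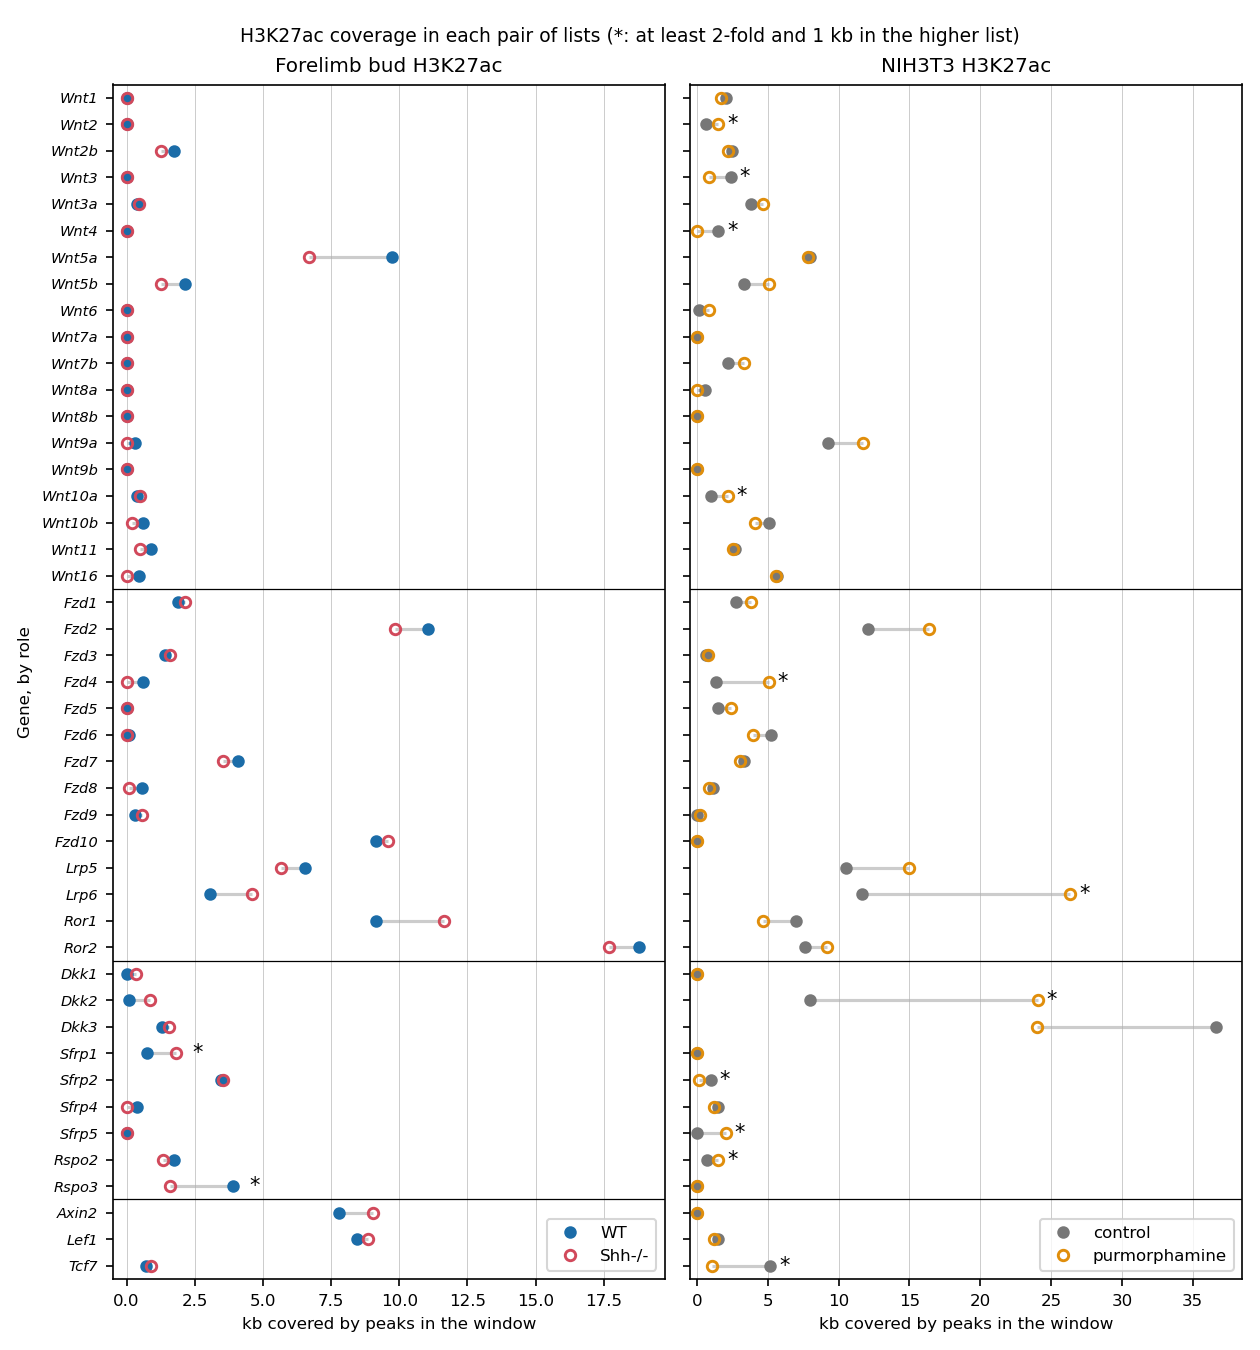
H3K27ac covered kb per gene (x axis) for each Wnt gene (rows), with WT as filled blue and Shh-/- as open red points in the limb panel, and control as grey and purmorphamine as open orange points in the NIH3T3 panel. Stars mark the genes past 2-fold and 1 kb, of which there are 2 in the limb (Rspo3 and Sfrp1) and 11 in NIH3T3 cells, and in the limb most pairs of points lie close together.

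Promoter peaks were present in a single genotype at 5 genes. Fzd4, Fzd8 and Rspo3 had one in WT alone and Dkk1 and Dkk2 in Shh-/- alone. A promoter acetylated in both genotypes was found for 35.6% of the 45 genes and 38.4% of all genes. In WT the shares were 42.2% and 43.3%, and in Shh-/- 40.0% and 40.4%. The Fzd4 peak was 400 bp wide and the nearest Shh-/- peak lay 40251 bp away. Dkk1, an Lrp5 and Lrp6 antagonist, had a Shh-/- peak of 350 bp at its start, with the nearest WT peak 77351 bp away. At the Dkk2 start Shh-/- had 3 peaks, 2 of 200 bp and 1 of 150 bp, of which the strongest lay 59251 bp from the nearest WT peak. None of the peaks in a single genotype was wider than 550 bp, and all 5 genes had H3K4me2 promoter peaks in both genotypes.

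Where a promoter was acetylated in both genotypes, the height of the largest peak could be compared. Over 16 Wnt genes the difference in log2 ratio, WT minus Shh-/-, had a median of 0.44, close to 0.35 over all 8418 such genes, of which the 5th to 95th percentiles were -0.79 to 1.56. The highest was at Fzd2 (6.73 in WT and 5.22 in Shh-/-), followed by Wnt5b, Fzd7 (6.28 and 5.04) and Ror2 (6.02 and 4.96). The lowest were Sfrp2 (3.33 and 4.03) and Fzd3 (4.57 and 5.19). All 16 lay within the 5th to 95th percentiles of all genes. For H3K4me2 the median over 39 genes was -0.01, against -0.03 over all genes (5th to 95th percentiles -1.04 to 0.98). Wnt6, the highest at 1.61, was the 1 gene outside those percentiles.

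For H3K4me2, 57 of 177 WT peaks at Wnt loci lacked a Shh-/- counterpart (32.2%, 25.8 to 39.4, against 25.7% of the whole list and 23.0% in all gene windows), and 47 of 186 Shh-/- peaks lacked a WT counterpart (25.3%, 19.6 to 32.0, against 22.5% and 19.5%). Among the better-ranked peaks 4 of 75 (5.33%) and 6 of 85 (7.06%) were unshared, against 3.59% and 4.03% of the better-ranked peaks of the whole lists. Several of these mark the edge of a domain split differently in the 2 lists, as at Wnt11, Sfrp2 and Rspo3, where the nearest peak of the other genotype began within 151 bp.

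In NIH3T3 cells the acetylated Wnt loci were partly different from those of the limb. Dkk3, a secreted Dickkopf relative, had the most acetylated window in control cells, 36658 bp (44.1% of the window), and 24008 bp (28.9%) with purmorphamine. Fzd2 followed with 12059 bp (27.6%) in control and 16409 bp (37.6%) with purmorphamine, the highest share of a window in that list. Wnt9a, of which the promoter carried H3K27me3 in the limb, had 9250 bp in control and 11700 bp with purmorphamine. Lrp5 had 10500 and 14950 bp, and Lrp6 had 11650 and 26374 bp. Axin2, Fzd10, Dkk1, Rspo3 and Sfrp1 had no peak in either NIH3T3 list.

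With purmorphamine, the share of peaks without a control counterpart was higher at Wnt loci than over the list. Of 303 purmorphamine peaks in the windows 156 were unshared (51.5%, 95% interval 45.9 to 57.1), against 36.5% of the whole list and 33.0% of its peaks in all gene windows. In the other direction 89 of 238 control peaks were unshared (37.4%, 31.5 to 43.7), against 41.1% of the whole list. Dkk2 and Lrp6 gave a large part of this. Without Dkk2 the purmorphamine share was 45.5% (39.5 to 51.6), and without both it was 42.1% (35.8 to 48.7). Peaks of 1 locus are not independent, so the intervals are narrower than the error over loci. Of the better-ranked peaks 38 of 141 were unshared, against 16.0% of the better-ranked peaks of the whole list.

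By covered base pairs, 7 of 33 genes were called higher with purmorphamine (21.2%, against 3.76% of all loci) and 4 of 33 higher in control (12.1%, against 6.09%). The former were Dkk2, Lrp6, Fzd4, Wnt2, Wnt10a, Rspo2 and Sfrp5, and the latter Tcf7, Wnt3, Sfrp2 and Wnt4. The calls at Dkk2 and Lrp6 rested on many peaks, those at Wnt2, Wnt10a, Rspo2, Sfrp5, Wnt3, Sfrp2 and Wnt4 on 2400 bp or less in the higher list.

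Dkk2, which encodes a Dickkopf protein that modulates Lrp6, had 24050 bp of H3K27ac in 48 peaks with purmorphamine and 7950 bp in 18 peaks in control, a ratio of 3.03. The promoter was not where they differed, since its peak was 3700 bp wide with a log2 ratio of 4.13 with purmorphamine and 3150 bp wide with 4.26 in control. The additional peaks lay mostly in the gene body, and 40 of the 48 had no control counterpart. The best-ranked of them, 2900 bp wide with a log2 ratio of 4.05, lay in an intron 41658 bp from the start. In the 1 Mb on either side purmorphamine cells had less H3K27ac than control, 137300 against 152600 bp, a ratio of 0.900. Dkk2 was called under all 7 alternatives tried. In the limb the Dkk2 window held 100 bp in WT and 850 bp in Shh-/-.

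The following stretches come from well-ranked purmorphamine-only peaks at Wnt loci that held the Tcf/Lef word, 1 per gene, in an intron of Dkk2 at 43.5 kb from its start and in an intron of Wnt5b at 53.9 kb. No purmorphamine-only peak at these loci held the Gli word. Each run is 200 bases of the plus strand of GRCm38 outside annotated exons, with the word, CTTTGAT or its reverse complement ATCAAAG, in capitals.
Dkk2, chr3:132128706-132128905: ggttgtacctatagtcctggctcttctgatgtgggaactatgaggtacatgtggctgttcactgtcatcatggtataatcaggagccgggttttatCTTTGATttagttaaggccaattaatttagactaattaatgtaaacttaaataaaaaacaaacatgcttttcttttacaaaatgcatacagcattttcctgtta
Wnt5b, chr6:119490398-119490597: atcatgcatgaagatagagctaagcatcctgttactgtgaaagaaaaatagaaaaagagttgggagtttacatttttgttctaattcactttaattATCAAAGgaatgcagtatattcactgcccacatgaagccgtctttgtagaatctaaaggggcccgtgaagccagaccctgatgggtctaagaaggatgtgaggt
The Wnt5b peak was 700 bp wide with a log2 ratio of 3.57, and its nearest control peak lay 7101 bp away. The nearest start of that stretch belongs to Fbxl14, so its position does not assign it to 1 gene.

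Lrp6 had 26374 bp in 34 peaks with purmorphamine and 11650 bp in 20 peaks in control, a ratio of 2.26. The Lrp6 promoter differed little, with a log2 ratio of 5.10 with purmorphamine and 4.80 in control. Much of the difference lay at the far end of the window near Bcl2l14, and with only the peaks whose nearest start was that of Lrp6 the difference was 4350 bp and no longer past 2-fold. Lrp6 covered less in the surrounding 1 Mb with purmorphamine, at a ratio of 0.887.

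Fzd4, a Frizzled receptor, had 5100 bp in 7 peaks with purmorphamine and 1300 bp in 1 peak in control, a ratio of 3.92. The common promoter peak had a log2 ratio of 4.53 with purmorphamine and 3.63 in control. A cluster of 4 purmorphamine peaks of 1300, 400, 1050 and 200 bp began 11345 bp from the start, beyond the end of the gene, and none had a control counterpart. With no flank around the gene the difference was 345 bp. The surrounding 1 Mb had a ratio of 0.909.

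Tcf7, which encodes a T-cell factor of the pathway, was the clearest case in the other direction, with 5179 bp in 9 peaks in control and 1029 bp in 2 peaks with purmorphamine, a ratio of 5.03. Its own promoter had no peak in either list. Control-only peaks of 900 and 1200 bp lay over exons toward the 3′ end of the gene, and a shared peak there was 1300 bp wide in control and 450 bp with purmorphamine. The surrounding 1 Mb had less acetylation in control, with a ratio of 0.706. Tcf7 was called under all 7 alternatives.

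**Figure D4:**
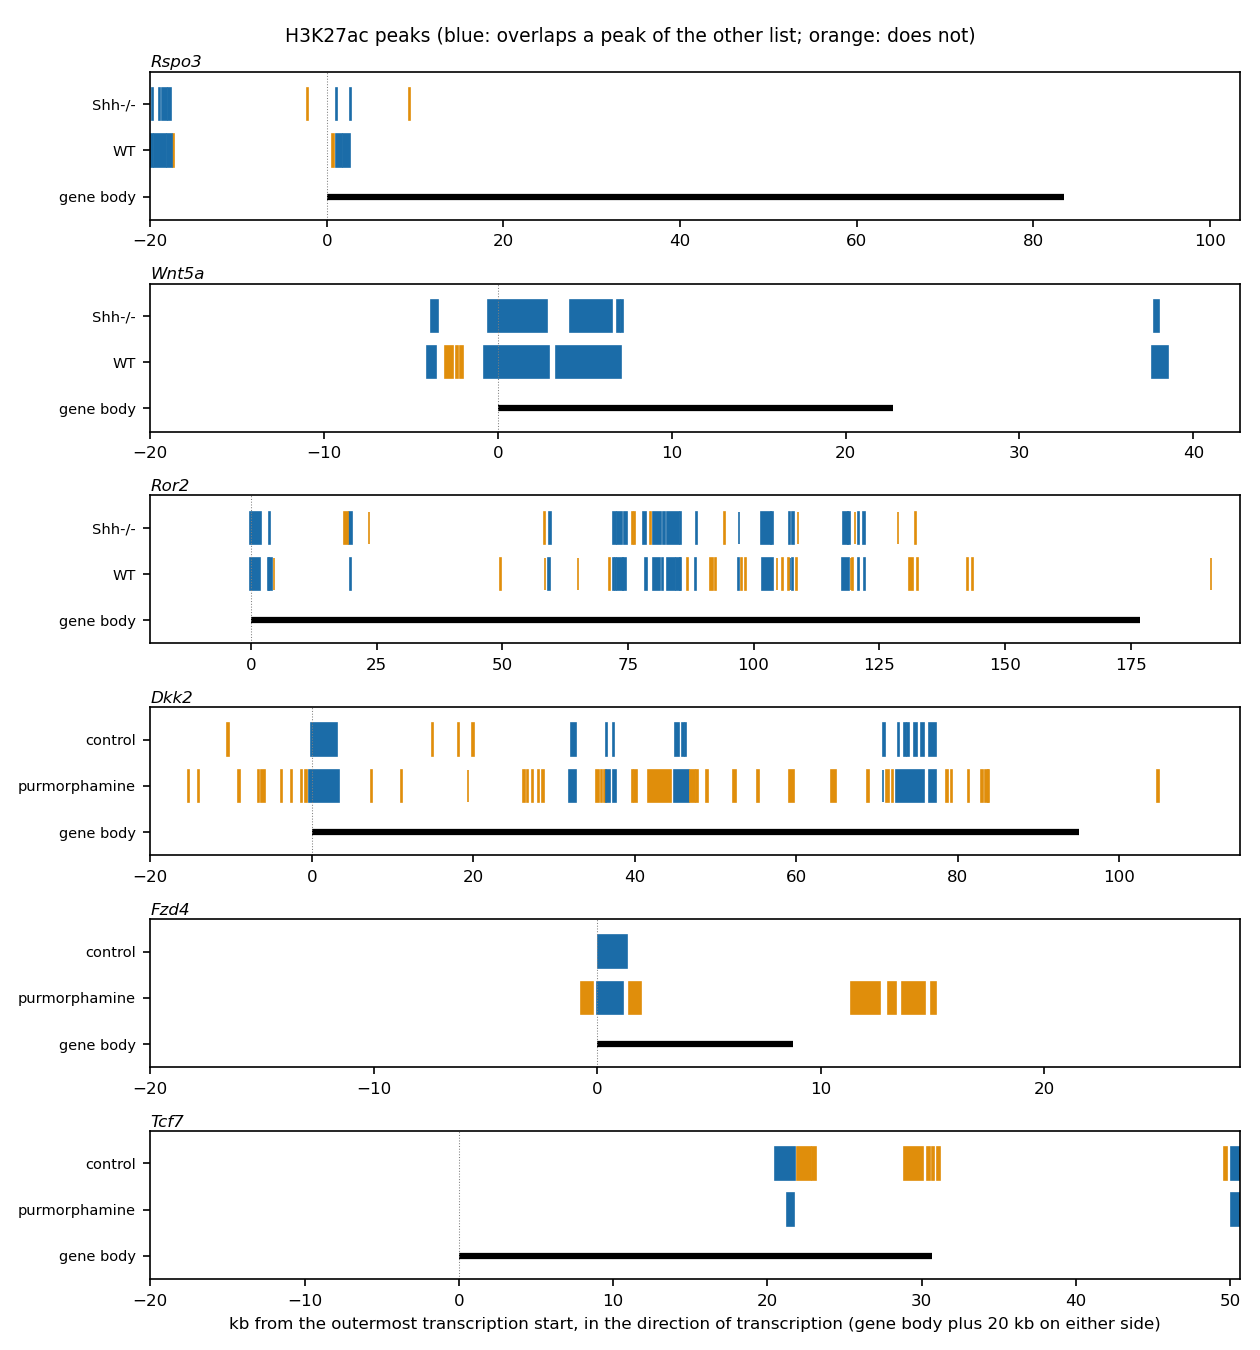
Position of peaks, in kb from the outermost transcription start in the direction of transcription (x axis), for Rspo3, Wnt5a and Ror2 in the 2 limb H3K27ac lists and for Dkk2, Fzd4 and Tcf7 in the 2 NIH3T3 lists, with shared peaks in blue, unshared peaks in orange and the gene body in black. The purmorphamine peaks of Dkk2 spread over the gene body while its promoter peak is shared, and the unshared control peaks of Tcf7 lie at the 3′ end.

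The smaller calls concerned few base pairs. Sfrp5, an antagonist, had 2050 bp in 8 peaks with purmorphamine and was listed with none in control, and Wnt4 had 1500 bp in 7 peaks in control and none with purmorphamine, so no ratio is given for either. Rspo2 had 1500 bp with purmorphamine and 700 bp in control, and no peak of one list overlapped a peak of the other. Wnt2 had 1500 and 600 bp. Wnt10a had 2150 and 1000 bp, part of which was a purmorphamine peak at the start of its neighbour Wnt6, a ligand of the limb ectoderm. Wnt3 had 850 bp with purmorphamine and 2400 bp in control, and Sfrp2 had 150 and 1000 bp. None of these 7 genes had an acetylated promoter of its own in NIH3T3 cells.

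At the 17 Wnt promoters acetylated in both NIH3T3 lists the difference in log2 ratio, purmorphamine minus control, had a median of 0.29, against 0.15 over all 11174 such genes (5th to 95th percentiles -0.57 to 0.90). Lrp5 had the highest (5.59 and 4.55) and Ror1 the lowest (3.68 and 4.43), both just outside those percentiles.

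A pair of words was searched in all peaks at Wnt loci, exactly and on both strands, GACCACCCA for Gli factors and CTTTGAT for Tcf and Lef factors. The Gli word was in 0 of 215 WT and 0 of 208 Shh-/- H3K27ac peaks, against 0.401% and 0.266% of the whole lists, shares at which about 1 peak or fewer would hold it. In NIH3T3 cells it was in 1 of 303 purmorphamine peaks, a shared peak at Fzd2 (0.33%, against 0.725%), and in 0 of 238 control peaks (0.592% of the whole list). Among H3K27me3 peaks 4 of 100 held it (4.0%, 1.57 to 9.84), against 0.528%, but none within the central 300 bases. The Tcf/Lef word was in 7.91% of WT and 8.17% of Shh-/- H3K27ac peaks at Wnt loci, against 6.35% and 6.2%, and in 11.2% (8.14 to 15.3) of purmorphamine peaks and 25 of 238 control peaks (95% interval 7.22 to 15.0%), against 7.85% and 8.55%. Within the central 300 bases, where width plays no part, the shares were 4.19%, 4.81%, 6.6% and 5.46%, against 4.63%, 4.62%, 4.22% and 4.45%, with an interval of 4.31 to 9.97% for purmorphamine. Among H3K4me2 peaks the Tcf/Lef word was in 9.04% in WT and 9.68% in Shh-/-, against 6.19% and 5.72%. In their central 300 bases it was in 2.82% in WT (1.21 to 6.44), against 3.58%, and in 8.06% in Shh-/- (4.95 to 12.9), against 3.89%. H3K27me3 peaks held it in 10 of 100 cases, against 5.74%, and in 2 of 100 at the centre, against 5.42%. Of H3K27ac peaks with the Tcf/Lef word, 11 with purmorphamine and 2 in control were unshared, beside 23 shared in each list. In limb buds 1 in WT and 2 in Shh-/- were unshared, beside 16 and 15 shared. Of all peaks at Wnt loci 51.5% with purmorphamine, 37.4% in control, 39.5% in WT and 36.5% in Shh-/- were unshared. Most of the 11 purmorphamine peaks lay at Dkk2, so their number and the 11.2% share rest partly on 1 locus.

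The other 45 genes of the pathway included Ctnnb1 (β-catenin), Apc, the Dvl genes, Lgr receptors and planar polarity genes. They had an acetylated promoter in 29 cases in WT limb buds (64.4%, against 43.3% of all genes) and in 28 in Shh-/- (62.2%, against 40.4%). H3K27me3 lay at a start in 10 cases (22.2%, against 12.6%). Of 34 with enough limb H3K27ac, Celsr1 and Dvl1 were called higher in WT (5.88%, against 10.7% of all loci) and Rspo4 in Shh-/- (2.94%, against 1.1%). Of 44 none was called for H3K4me2, against 1.93% of all loci higher in WT and 0.26% higher in Shh-/-. In NIH3T3 cells 5 of 36 were called higher with purmorphamine (13.9%, against 3.76% of all loci), namely Lgr4, Rspo1, Rspo4, Tcf7l2 and Vangl2. In control 0 were called higher, against 6.09% of all loci.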

How the data were processed

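The data were 7 ChIP-seq peak lists on mm10. By the submitters' processing notes reads were aligned with Bowtie2 2.2.5 and limma was used, and by the study's methods peaks were called with CisGenome 2.1.0 on both replicates of a condition together, against input. A single input library served each limb condition for H3K27ac and H3K4me2. Read depth is unknown here, as the lists do not give it. The authors deposited for each peak a false discovery rate (a q-value), a score that orders the list, the highest log2 ratio of immunoprecipitate over input and the −log10 of the smallest Poisson p-value. The lowest score was 3 and the lowest −log10 value 5 in the deposited lists, while the highest FDR lay between 0.000805 and 0.255, so list lengths also differ through the calling.

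Samples were grouped by their labels. Peaks on unplaced scaffolds (137) were left out. Gene bodies and transcription starts of protein-coding genes came from the basic GENCODE vM21 annotation of GRCm38. Covered base pairs were counted within each gene body with 20 kb on either side, a promoter was 1 kb on either side of any transcription start, and a peak was shared if at least 1 bp overlapped the other list. A locus was called at a 2-fold difference with at least 1000 bp in the higher list. Better-ranked peaks are the first 50% of a list. Scripts (python 3.11.15, numpy 2.4.6, pandas 2.3.3, scipy 1.17.1, matplotlib 3.10.9) were tested on simulated data. With 1 list per condition no test was run, and Wilson intervals (95%) cover counting error only.

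The 45 genes, the other pathway genes, the cell type markers and the comparisons were chosen with earlier results of these data known. Genes named with full values were those called, the 5 most acetylated in WT limb and in control cells, the 5 with the most H3K27me3, those with an unshared better-ranked H3K27ac peak and those with no H3K27ac. Other genes are given in the order of their role. The alternatives were other overlap rules, thresholds, flanks, scaling by list size, counts of peaks, and peaks nearest to the gene's own start, the last added for the named genes and calls after the values were seen. Some of the sequences chosen for printing are not reported here.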

Additional observations from a re-analysis of the deposited data

How the results depend on the processing

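No paired analysis was possible because both replicates of a condition were entered together into 1 list, and for the same reason no replicate could be left out. The shares of unshared peaks at Wnt loci changed with the overlap rule. When at least 50% of a peak had to be covered to count as shared, they were 53.0% (WT H3K27ac), 49.5% (Shh-/- H3K27ac), 44.6% (WT H3K4me2), 32.3% (Shh-/- H3K4me2), 58.1% (purmorphamine) and 47.1% (control). When peaks within 500 bp of one another also counted as shared, they were 23.3%, 19.7%, 15.3%, 12.9%, 38.3% and 26.5% in the same order. The whole lists had 58.9%, 46.8%, 35.3%, 29.0%, 44.2% and 51.2% under the first rule and 30.5%, 20.9%, 12.2%, 4058 of 38468 peaks, 24.5% and 26.9% under the second. In the better-ranked 50% of both lists the shares were 29.7% for Shh-/- H3K27ac, 34.8% for purmorphamine and 24.8% for control, against 29.3%, 26.8% and 30.4% of the whole lists. Genes called higher in WT for H3K27ac numbered 2 in the better-ranked 50%, 3 with a 50 kb flank, 2 by number of peaks and 2 by peaks nearest to the gene's own start, and those higher in Shh-/- 0 with no flank and 0 with 50 kb. For H3K4me2, genes higher in WT numbered 2 in the better-ranked 50% and 4 by number of peaks, and those higher in Shh-/- 1 in the better-ranked 50%, 1 at an FDR under 0.05 and 3 by number of peaks. Purmorphamine calls numbered 4 in the better-ranked 50%, 3 with no flank and 11 by number of peaks. The share of all gene loci called was computed for the main rule alone. These counts under the alternatives therefore have no background, and whether they exceed that of all loci is unknown. Rspo3 reversed by number of peaks, with a difference of -1 peak. Of the other comparisons of counts and shares 63 stayed within the counting error or 1.5 times, and of the 91 values for genes called, 72 kept their call, 18 kept their direction or had no difference without passing the fold, and 1 was the reversal. The cause of these changes was not tested. Limits are the lack of replicate lists, the unknown depth, the different list lengths, the presence or absence of peaks in place of signal, and windows that hold starts of other genes.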
